A study of Parasteatoda tepidariorum with 12 samples.

Results

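*fuchi* and the other GATA factor genes of the common house spider *Parasteatoda tepidariorum* are 8 gene models of the 27990 in the deposited tables. They were taken by gene model number, with the names the study gives them. The GATA-like members are *fuchi* (aug3.g26874), *Pt-GATAL1* (aug3.g26871) and the gene next to *fuchi*, *Pt-GATAL2b* (aug3.g26875). The canonical members are *Pt-GATA1* (aug3.g20514), *Pt-GATA2* (aug3.g1834), *Pt-GATA3* (aug3.g8336), *Pt-GATA4* (aug3.g25261) and *Pt-GATA5* (aug3.g8337). Whole embryos of the Osaka isolate were collected 11, 20 and 31 h after the eggs were laid, at stages 2, 3 and early 5, in a *fuchi* pRNAi group and an untreated group per stage, with 2 libraries in each of the 6 groups. In parental RNAi (pRNAi), double-stranded RNA (dsRNA) is injected into the mother, and her eggs are studied. Here mated females received repeated injections of *fuchi* dsRNA at 2 µg per µl, and their eggs carry day 18 (replicate 2) or day 19 (replicate 1) in the labels. The untreated eggs, labelled day 0, came from the same 2 females before any injection. The controls were thus uninjected rather than injected with another dsRNA, and treatment goes together with the day of laying, so these cannot be told apart. Each library pooled 50 to 100 embryos, so a difference can come from fewer cells of a type or from less RNA per cell, which cannot be told apart.

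GATA factors are transcription factors that bind DNA with zinc fingers and are named for the short motif they recognise. In animals they act in the endoderm, the blood and the heart. The best known members in *Drosophila* are Serpent, an endoderm and blood factor, and Pannier, a factor of dorsal tissue and the heart. Cofactors of the Friend-of-GATA type, such as *Drosophila* U-shaped, bind GATA zinc fingers and change their activity.

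The reagent defines which transcript was targeted in these embryos. Whether it acted on other transcripts directly was not tested. The dsRNA came from a cloned piece of the *fuchi* transcript that was amplified with the following primer pair, given 5′ to 3′ from the primer list of the study, with the 22 bases of each that come from *fuchi* in capitals and the added cloning tail of 7 bases in lower case.
fuchi dsRNA forward primer: ggaattcGACATGTTCTCACCTATTTCCG
fuchi dsRNA reverse primer: ggaattcTGTAATTGCCTTAAGTCCGATG
The pair bounds the piece of *fuchi* that was injected, and the gene counts below were taken over the whole gene model.

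The family occupies 5 scaffolds of the Ptep_1.0 assembly. *fuchi* lies on scaffold 177 from 310446 to 328722 on the plus strand. *Pt-GATAL2b* follows it on the same strand after 4.80 kb with no gene model between them (333526 to 349540). *Pt-GATAL1* lies on the other strand of that scaffold, 104 kb before *fuchi*, with 2 gene models between them (124017 to 206074). *Pt-GATA3* (149687 to 183494) and *Pt-GATA5* (341296 to 378254) sit on the minus strand of scaffold 899, 158 kb apart, also with no gene model between them. *Pt-GATA4* is on scaffold 93 (711131 to 738922, plus strand), *Pt-GATA1* on scaffold 3899 (2716 to 67020, plus strand) and *Pt-GATA2* on scaffold 348 (285895 to 306914, minus strand). These positions are ends of gene models, and exons, introns and UTRs are not separated in the tables. No member overlapped another gene model. In the RefSeq gene table of a newer assembly (CAS_Ptep_4.0), in which all 8 members were found by NCBI gene number, *fuchi* and *Pt-GATAL2b* are again direct neighbours, as are *Pt-GATA3* and *Pt-GATA5*. Reads that would map to both *fuchi* and *Pt-GATAL2b* cannot be assigned with the tables, so the counts of this pair are uncertain.

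Libraries held 5662766 to 8857990 counts, and 14639 to 16929 gene models had at least 1 count. A count of 3 corresponds to 0.339 to 0.530 CPM, that is counts in proportion to library size, a floor that covers counting error only. This floor uses the plain library totals, whereas the CPM printed below are also TMM-scaled. On that scale 3 counts can lie above this range, as with 0.672 CPM for *Pt-GATA2* in early stage 5 *fuchi* pRNAi replicate 2. *catA* (alpha-catenin), a cell adhesion gene taken as a comparison gene, differed by a log2 of 0.03 ± 0.23, 0.26 ± 0.26 and 0.08 ± 0.26 (SE) at stages 2, 3 and early 5, with none of the 3 past the threshold.

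The target itself was lower in every *fuchi* pRNAi library than in any untreated library of the same stage. At stage 2, *fuchi* had 124 and 47 counts in *fuchi* pRNAi embryos (female 1, female 2), against 524 and 298 in untreated embryos. At stage 3 it had 556 and 344 counts in *fuchi* pRNAi embryos, against 1660 and 1418 in untreated embryos. The early stage 5 counts were 860 and 491 in *fuchi* pRNAi embryos, against 1815 and 1632 in untreated embryos. The groups did not overlap at any stage. With 2 libraries per group such a separation, here and below, says little by itself. Its share over all gene models was not counted.

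Scaled to library size, *fuchi* averaged 9.60 ± 5.28 CPM in *fuchi* pRNAi and 45.9 ± 9.86 CPM in untreated embryos at stage 2 (SD, n = 2 each). At stage 3 the values were 53.7 ± 2.36 CPM in *fuchi* pRNAi and 227.8 ± 1.12 CPM in untreated embryos. By early stage 5 they were 116 ± 9.08 CPM in *fuchi* pRNAi and 292 ± 22.4 CPM in untreated embryos. Within a female, the level left was 25.2% and 15.1% of the untreated level at stage 2, 24.4% and 22.8% at stage 3, and 44.5% and 35.7% at early stage 5. The transcript was therefore present in all 6 *fuchi* pRNAi libraries, with a higher mean at each later stage. Counts do not show where in the cell this RNA was. In stained *fuchi* pRNAi embryos the study saw *fuchi* signal in abembryonic cells only inside nuclei.

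The quasi-likelihood test of edgeR was run on the 4 libraries of a stage, and gene models with an adjusted p (Benjamini-Hochberg) below 0.01 were called. The log2 difference of *fuchi* was -2.27 ± 0.41 (SE) at stage 2, where the edgeR adjusted p over 12079 gene models was 0.98. With the female as a block, since the labels give the same mothers, the stage 2 difference was -2.34 (edgeR adjusted p = 6.5e-13). A blocked fit of 4 libraries leaves little spread of its own for each gene model. Its p-values, here and below, therefore rest mainly on the spread pooled over all gene models. In a fit of all 12 libraries the stage 2 adjusted p was 0.045 without the block and 0.0034 with it. The stage 3 difference was -2.07 ± 0.27 and was called (edgeR adjusted p = 0.0055). So was the early stage 5 difference of -1.40 ± 0.22 (edgeR adjusted p = 0.0071). At stage 3 the call was lost without untreated replicate 1, *fuchi* pRNAi replicate 1 or *fuchi* pRNAi replicate 2 (adjusted p 0.015, 0.018 and 0.034). At early stage 5 it was lost without either *fuchi* pRNAi library (adjusted p 0.045 and 0.038) and in a fit of all 12 libraries (0.026, and 0.0051, a call, when that fit had the block), while the difference itself stayed between -1.47 and -1.32 whichever library was left out.

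**Figure D1:**
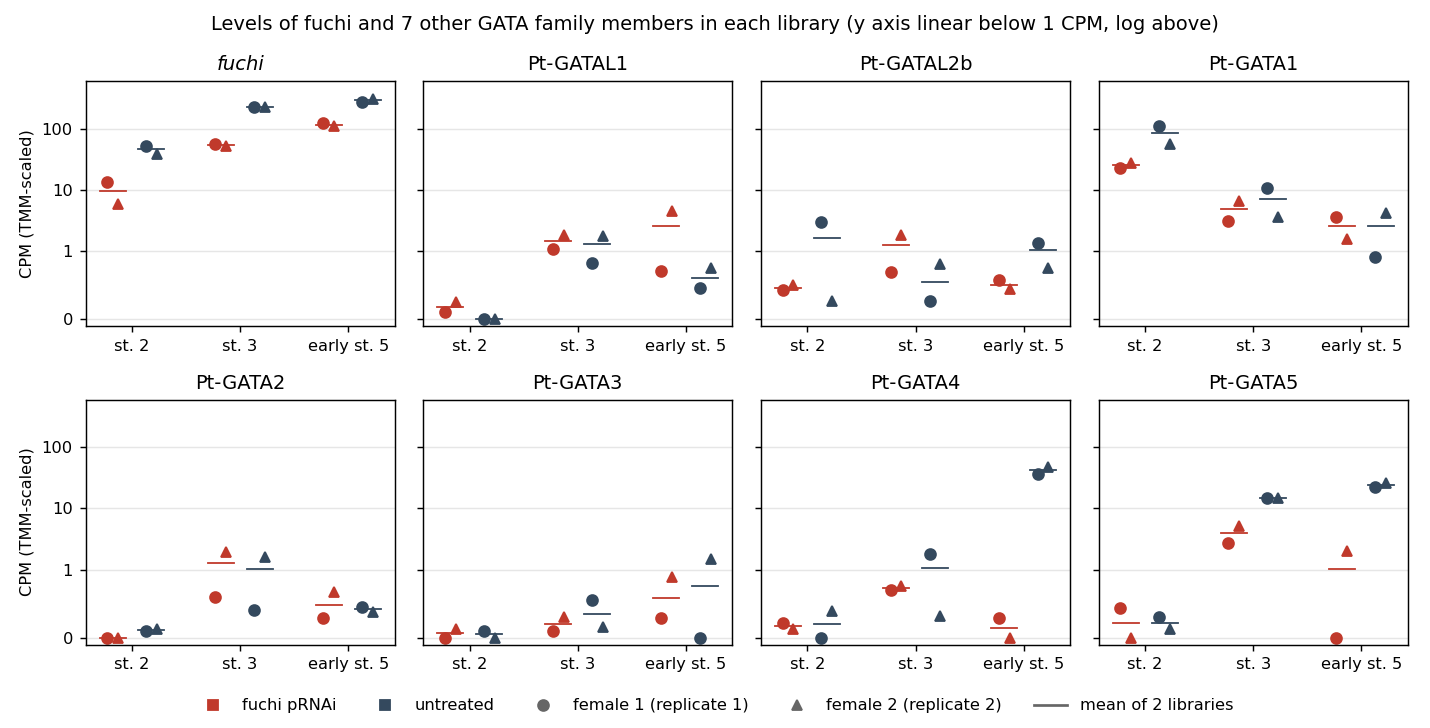
CPM of the 8 members in each library (TMM-scaled, linear below 1 CPM and logarithmic above), by stage, with *fuchi* pRNAi libraries in red to the left and untreated libraries in dark blue to the right; circles are female 1, triangles female 2 and bars the mean of 2. *fuchi* is high at all stages and lower in red at each, *Pt-GATA1* is high at stage 2, *Pt-GATA5* appears at stage 3, *Pt-GATA4* appears in untreated embryos at early stage 5, and the other 4 members stay low.

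*Pt-GATA1* is described in the tables as an endothelial GATA-2-like factor, and its RefSeq synonym is GATA-C. It was the canonical member with RNA already at stage 2. It had 214 and 222 counts in stage 2 *fuchi* pRNAi embryos, against 1109 and 428 in untreated embryos. All 4 libraries were far above the floor, and the groups did not overlap, although the untreated libraries were far from each other (112 CPM in female 1 and 55.8 CPM in female 2). The mean was 25.4 ± 3.31 CPM in *fuchi* pRNAi and 83.8 ± 39.6 CPM in untreated embryos (SD, n = 2 each), and 20.6% of the untreated level was left in female 1 and 49.6% in female 2.

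The log2 difference of *Pt-GATA1* at stage 2 was -1.73 ± 0.36 (SE), with an edgeR adjusted p of 0.98. The fit of the 4 libraries with the block gave -1.67 with an adjusted p of 3.3e-08, but with all 12 libraries in the blocked fit it was not called (-1.69, adjusted p = 0.56). Without untreated replicate 1 the difference was -1.17, and without untreated replicate 2 it was -2.14. At stage 3 *Pt-GATA1* had 31 and 44 counts in *fuchi* pRNAi embryos, against 79 and 22 in untreated embryos, and at early stage 5 it had 25 and 7, against 6 and 22. The groups overlapped at both of these stages, and the differences of -0.57 ± 0.62 and 0.01 ± 0.74 did not pass the test.

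*Pt-GATA5*, described in the tables as GATA-4, lies beside *Pt-GATA3* and appeared at stage 3. At stage 2 it had 4 and 0 counts in *fuchi* pRNAi embryos, against 3 and 1 in untreated embryos. At stage 3 it had 27 and 34 counts in *fuchi* pRNAi embryos, against 108 and 93 in untreated embryos, a level of 18.2% and 34.3% of the untreated one within a female. The early stage 5 counts were 0 and 9 in *fuchi* pRNAi embryos, against 147 and 138 in untreated embryos. The groups did not overlap from stage 3 on.

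At stage 3, *Pt-GATA5* averaged 3.92 ± 1.74 CPM in *fuchi* pRNAi and 14.9 ± 0.157 CPM in untreated embryos (SD, n = 2 each). The log2 difference was -1.93 ± 0.47 (SE; edgeR adjusted p = 0.15), and the blocked fit of the 4 libraries gave -1.98 with an adjusted p of 7.7e-05. The blocked fit of all 12 libraries gave -1.99 with an adjusted p of 0.12, which was not a call. The early stage 5 mean was 1.01 ± 1.43 CPM in *fuchi* pRNAi and 24.2 ± 2.59 CPM in untreated embryos. The log2 difference there was -4.87 ± 0.82 (SE), which was called (edgeR adjusted p = 0.0093; 8.3e-14 with the block). The call was lost with DESeq2 (adjusted p = 0.36), with a filter of 1 CPM in 2 libraries (0.014) and in a fit of all 12 libraries (0.011, and 0.00034, a call, when that fit had the block). Without *fuchi* pRNAi replicate 2, whose 9 counts are the only ones of that group, the fitted difference was -10.29, and without *fuchi* pRNAi replicate 1 it was -3.60.

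*Pt-GATA4* had the largest early stage 5 difference of the 7 members tested there. It was near the floor at first, with 2 and 1 counts in *fuchi* pRNAi embryos, against 0 and 3 in untreated embryos at stage 2. At stage 3 it had 7 and 5 counts in *fuchi* pRNAi embryos, against 13 and 2 in untreated embryos, and the groups overlapped. The early stage 5 counts were 2 and 0 in *fuchi* pRNAi embryos, against 243 and 252 in untreated embryos. In CPM these last values were 0.286 and 0 in *fuchi* pRNAi, against 37.0 and 47.5 in untreated embryos.

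Over the summed counts, scaled to library size, the level at early stage 5 was 239 times lower in *fuchi* pRNAi embryos, with an exact 95% counting interval of 65.8 to 1979. The fitted log2 difference was -7.84 ± 0.55 (SE) and was called (edgeR adjusted p = 5.4e-05). The call held under all alternatives run for that stage, leaving out each of the 4 libraries included. Since the 2 counts of the *fuchi* pRNAi group are in replicate 1, the fitted size moved between -10.85 (without that library) and -7.20 (without *fuchi* pRNAi replicate 2).

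The other 4 members were low throughout, and none was called at any stage. *Pt-GATAL2b*, the neighbour of *fuchi*, had 4 and 4 counts in *fuchi* pRNAi embryos, against 30 and 2 in untreated embryos at stage 2. At stage 3 it had 7 and 12 counts in *fuchi* pRNAi embryos, against 2 and 5 in untreated embryos. Early stage 5 gave 4 and 2 counts in *fuchi* pRNAi embryos, against 9 and 4 in untreated embryos. Its level was lower in *fuchi* pRNAi libraries at early stage 5 and higher within each female at stage 3, but the log2 differences of 1.20 ± 1.06 and -1.10 ± 1.00 (SE) at stages 3 and early 5 were close to their errors.

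*Pt-GATAL1* had 1 and 2 counts in *fuchi* pRNAi embryos, against 0 and 0 in untreated embryos at stage 2, and 11 and 12 counts in *fuchi* pRNAi embryos, against 6 and 11 in untreated embryos at stage 3. Early stage 5 gave 5 and 20 counts in *fuchi* pRNAi embryos, against 3 and 4 in untreated embryos (log2 difference 1.97 ± 1.05, edgeR adjusted p = 0.50). *Pt-GATA2* reached at most 13 counts in *fuchi* pRNAi and 10 in untreated libraries, both at stage 3 in female 2. Its second gene model (g1836, 11.3 kb away on the same strand) had 0 counts in the 6 *fuchi* pRNAi libraries and 0 to 2 in untreated libraries. *Pt-GATA3* had 0 to 4 counts in *fuchi* pRNAi and 0 to 8 in untreated libraries. At these depths a difference of these members was not detectable unless it was large.

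**Figure D2:**
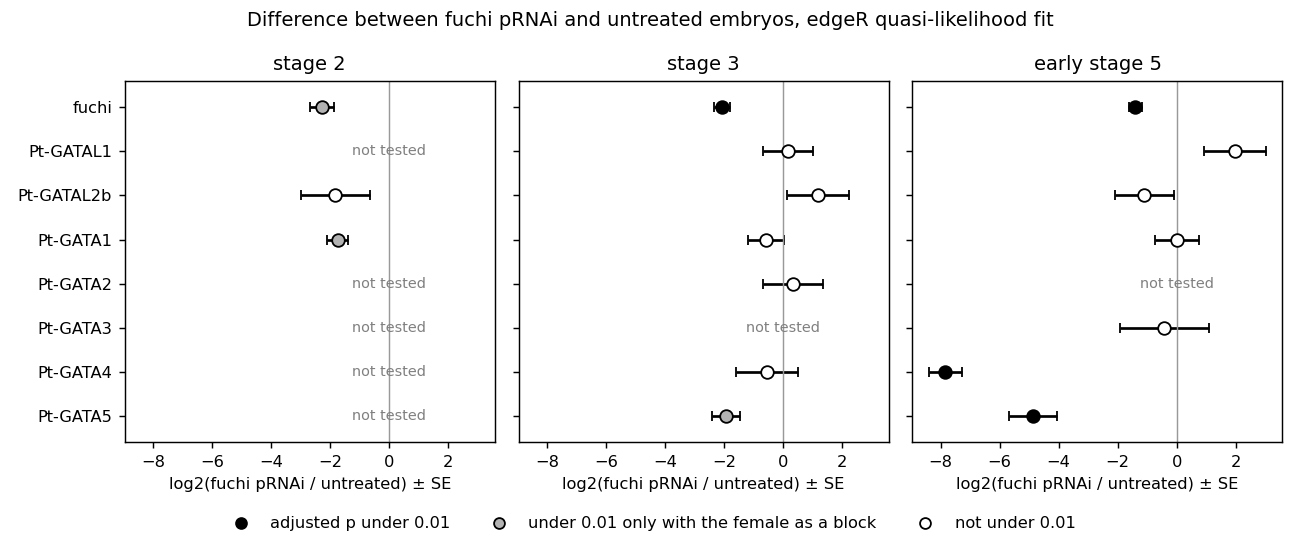
Log2 difference between *fuchi* pRNAi and untreated embryos for each member, by stage (points, edgeR estimate; bars, SE; 2 libraries per group). Filled points are called, grey points are called only with the female as a block in the fit of the 4 libraries of the stage, open points are not called, and members under the filter are marked as not tested. *fuchi* is left of 0 at all 3 stages, *Pt-GATA1* is grey at stage 2 and *Pt-GATA5* at stage 3, and *Pt-GATA4* is at -7.84 at early stage 5.

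Counted over the family, the calls followed the few abundant members. At stage 2, 3 of the 8 members passed the filter of 1 CPM in at least 1 library and 0 were called, beside 0% of all gene models tested. At an unadjusted p under 0.05 there were 2 such members (*fuchi* and *Pt-GATA1*) and 413 of all gene models. DESeq2 called 2 members and 13 gene models, and the likelihood ratio test of edgeR 1 and 4. With the block, 2 members were called at stage 2, beside 0.770% of all gene models. At stage 3, 7 members were tested and 1 was called (*fuchi*, the target), beside 0.270% of all gene models, and with the block 2 were called (*fuchi* and *Pt-GATA5*), beside 2.60%. At early stage 5, 7 were tested and 3 were called, all lower (*fuchi*, *Pt-GATA4* and *Pt-GATA5*), beside 3.12% in either direction and 2.96% lower. The same 3 were called with the block, beside 7.98%. With the block in the fit of all 12 libraries, 1, 1 and 3 members were called at stages 2, 3 and early 5, beside 0.0345%, 0.807% and 3.68% of all gene models, so that only *fuchi* was called at the first 2 stages. The median log2 difference of the members tested was -1.82, -0.54 and -1.10 at stages 2, 3 and early 5, against 0.01, 0.01 and -0.01 over all gene models tested. These medians include the target *fuchi*. The stage 2 median is the value of *Pt-GATAL2b* (-1.82 ± 1.17, SE), which had 4 and 4 counts in *fuchi* pRNAi embryos, against 30 and 2 in untreated embryos. A member could pass the filter through its high group alone, so the medians describe the tested members only and no fall of the family as a whole.

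The normal course of the family was read from the untreated embryos, in a fit of all 12 libraries over 14498 gene models, which all 8 members entered. A change between stages was called at an adjusted p under 0.01 and at least 2-fold. Between stage 2 and stage 3, *fuchi* rose by a log2 of 2.31 ± 0.31 (SE; edgeR adjusted p = 7.9e-05), and *Pt-GATA5* by 5.95 ± 1.05 (adjusted p = 0.00055). *Pt-GATA1* fell by 3.53 ± 0.65 on the log2 scale (adjusted p = 0.00070, and 0.010 without stage 3 untreated replicate 2, where the call was lost). *Pt-GATAL1*, with 0 and 0 counts at stage 2 and 6 and 11 at stage 3, was called as well (adjusted p = 0.0072), but the call was lost in 8 of the 12 fits without a library. These 4 of 8 members stand beside 31.9% of all gene models called in that step. Between stage 3 and early stage 5 only *Pt-GATA4* was called, with a rise of 5.27 ± 0.77 (adjusted p = 0.00024), so 1 of 8 members, beside 17.8% of all gene models.

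In *fuchi* pRNAi embryos the early part of this course was still seen. Between stage 2 and stage 3, *fuchi* rose by a log2 of 2.47 ± 0.33 (SE; edgeR adjusted p = 8.8e-05) and *Pt-GATA5* by 3.99 ± 1.06 (adjusted p = 0.0098), and *Pt-GATA1* fell by 2.40 ± 0.64 (adjusted p = 0.0096). *Pt-GATA2*, with 0 and 0 counts at stage 2 and 6 and 13 at stage 3, was also called (adjusted p = 0.0091). These are 4 of 8 members, beside 24.5% of all gene models, and without a library 1 to 3 members were called. The call of *fuchi* held in all 12 such fits, that of *Pt-GATA1* was lost in 6, that of *Pt-GATA5* in 10 and that of *Pt-GATA2* in 11. Between stage 3 and early stage 5, 0 of 8 members were called by edgeR's quasi-likelihood test without the block, beside 18.6% of all gene models, and 2 had an unadjusted p under 0.05. These were *fuchi* (1.11 ± 0.31, adjusted p = 0.014, and 0.0047 with the block, which called 23.6% of all gene models) and *Pt-GATA5* (-2.12 ± 0.96, adjusted p = 0.11). *Pt-GATA4*, which rose at this step in untreated embryos, differed by -1.98 ± 1.16 in *fuchi* pRNAi embryos (adjusted p = 0.21).

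Whether the effect of *fuchi* pRNAi itself differed between stages was tested as an interaction in the same fit. The effect on *Pt-GATA4* at early stage 5 minus that at stage 3 was a log2 of -7.25 ± 1.32 (SE), with an edgeR adjusted p of 0.023, and of 0.0035 with the female as a block, where it was called, as were 0.683% of all gene models. At stage 3 *Pt-GATA4* was near the floor in untreated embryos too (13 and 2 counts), so a fall could hardly show there. The difference between these stages was -2.82 ± 1.21 (adjusted p = 0.59) for *Pt-GATA5*, 0.72 ± 1.00 (adjusted p = 0.98) for *Pt-GATA1* and 0.76 ± 0.43 (adjusted p = 0.78) for *fuchi*. Without the block, 0 of 8 members were called in each of the 3 pairs of stages, beside 0%, 0.269% and 0.504% of all gene models for stage 3 minus 2, early stage 5 minus 3 and early stage 5 minus 2. The numbers with an unadjusted p under 0.05 were 0, 2 and 2. The higher share of *fuchi* RNA left at early stage 5 than at stages 2 and 3 was therefore not a difference that passed this test.

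Levels of different members were compared in the deposited RPKM, which scales counts to transcript length and library total. In stage 2 *fuchi* pRNAi embryos, *Pt-GATA1* led with a mean of 7.69 RPKM and *fuchi* followed with 3.01. In untreated embryos of that stage the order was the same, with 25.6 RPKM for *Pt-GATA1* and 14.6 for *fuchi*, and the lower *Pt-GATA1* library (17.5 RPKM) was above the higher *fuchi* library (16.6 RPKM). At stage 3, *fuchi* led with 15.2 RPKM in *fuchi* pRNAi and 59.2 RPKM in untreated embryos. The next member was *Pt-GATA1* in *fuchi* pRNAi embryos (1.31 RPKM), where it overlapped *Pt-GATA2* (1.18 RPKM), and *Pt-GATA5* in untreated embryos (3.30 RPKM), above *Pt-GATA1* (1.81 RPKM) in each library. At early stage 5, *fuchi* led again with 24.1 RPKM in *fuchi* pRNAi and 64.4 RPKM in untreated embryos. There the untreated order went on with *Pt-GATA4* (10.6 RPKM) and *Pt-GATA5* (4.56 RPKM), all 3 apart in each library, while in *fuchi* pRNAi embryos the 6 members ranked from 2 to 7 overlapped their neighbours in rank, from 0.513 down to 0.178 RPKM.

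Summed over the 8 members, the RPKM was 11.3 ± 0.514 in *fuchi* pRNAi and 41.8 ± 15.6 in untreated embryos at stage 2 (SD, n = 2 each). At stage 3 it was 20.1 ± 1.12 in *fuchi* pRNAi and 66.3 ± 2.24 in untreated embryos, and at early stage 5 it was 26.1 ± 1.32 in *fuchi* pRNAi and 81.6 ± 13.4 in untreated embryos. The libraries of the groups did not overlap at any stage. The sum includes the target *fuchi*, so its fall alone lowers the total, and a sum without *fuchi* was not made. *fuchi* made up 90.5% and 94.4% of the family sum in early stage 5 *fuchi* pRNAi libraries (the lower and the higher), against 77.8% and 80.5% in untreated libraries. *Pt-GATA4* made up 0% and 0.250% of it in *fuchi* pRNAi libraries, against 12.2% and 13.7% in untreated libraries. At stage 3 the share of *fuchi* went the other way, with 68.1% and 83.9% in *fuchi* pRNAi libraries, against 88.7% and 90.0% in untreated libraries. At stage 2 it was 17.1% and 35.9% in *fuchi* pRNAi libraries, against 31.3% and 41.3% in untreated libraries, and the groups overlapped.

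**Figure D3:**
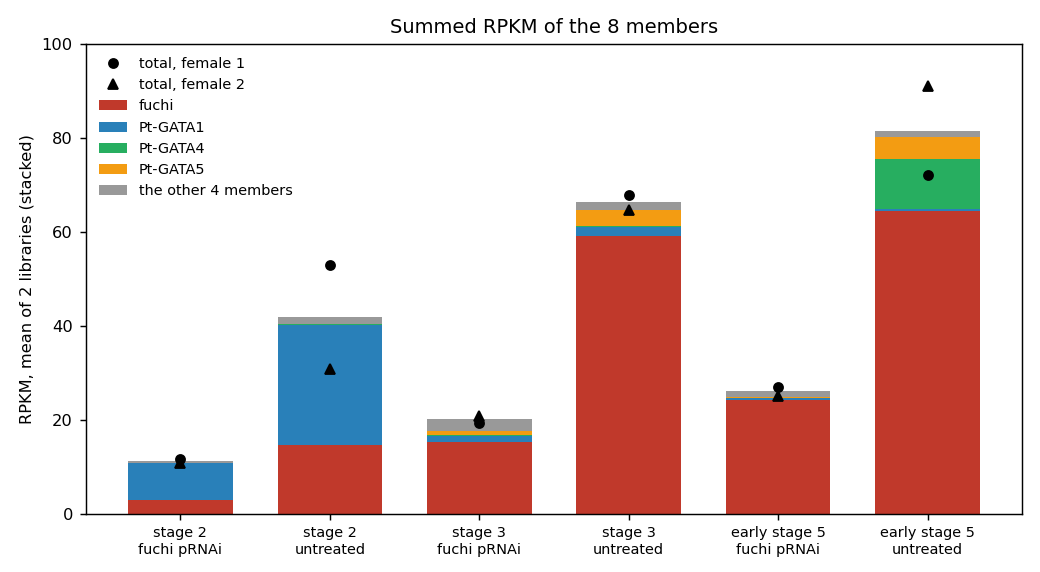
Summed RPKM of the 8 members (bars, mean of 2 libraries, stacked by member; circle and triangle, the total of female 1 and female 2), with *fuchi* pRNAi to the left of untreated embryos at each stage. Totals are 11.3, 20.1 and 26.1 in *fuchi* pRNAi and 41.8, 66.3 and 81.6 in untreated embryos at stages 2, 3 and early 5. They include the target *fuchi*. *Pt-GATA1* (blue) is seen mainly at stage 2, and *Pt-GATA4* (green) mainly in untreated early stage 5 embryos.

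The scaffold neighbourhoods were then described. Besides the members themselves, 24 gene models lay within 100 kb of a member, of which 17, 17 and 18 were tested at stages 2, 3 and early 5. None was called at stages 2 and 3 by edgeR's quasi-likelihood test, its likelihood ratio test or DESeq2, and 1 was called at early stage 5, beside 3.12% of all gene models. At stages 2, 3 and early 5, 0, 1 and 4 neighbours had an unadjusted p under 0.05, beside 413, 1239 and 1731 of all gene models. The median log2 difference of the neighbours was -0.07, 0.01 and 0.00 at the 3 stages, against 0.01, 0.01 and -0.01 over all gene models.

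The called neighbour was g8338, an uncharacterized gene 38.7 kb from *Pt-GATA5* on the other strand (scaffold 899, 416916 to 432739, plus strand). It had 0 and 0 counts in early stage 5 *fuchi* pRNAi embryos, against 149 and 77 in untreated embryos. That is at least 72.8-fold lower, taking 3 counts over the group as the limit (edgeR adjusted p = 0.00036). At stage 3 it had 1 and 0 counts in *fuchi* pRNAi embryos, against 5 and 5 in untreated embryos. Its counts in untreated embryos thus appeared mainly at early stage 5, the stage at which *Pt-GATA4* was also first high.

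No other direct neighbour outside the family was called. An ephrin-B2a gene (g25262), 1.07 kb from *Pt-GATA4* on the other strand, had 402 and 256 counts in early stage 5 *fuchi* pRNAi embryos, against 261 and 187 in untreated embryos (log2 difference 0.54 ± 0.23, edgeR adjusted p = 0.35). The nucleolin-like gene on the other side of *Pt-GATA4* (g25260, 53.6 kb) differed by -0.28 ± 0.21, -0.54 ± 0.23 and -0.15 ± 0.21 at stages 2, 3 and early 5. Between *Pt-GATAL1* and *fuchi*, g26872 had 5124 and 6536 counts in *fuchi* pRNAi embryos at stage 2, against 5203 and 2558 in untreated embryos, and at most 14 in any library at early stage 5. The model next to *fuchi* on that side, g26873, was not tested at any stage. Beside *Pt-GATA2*, an acylamino-acid-releasing enzyme gene (g1833, 1.33 kb away) differed by -0.14 ± 0.25, -0.10 ± 0.28 and -0.63 ± 0.27 at the 3 stages, and g1835 on its other side was not tested. The neighbour of *Pt-GATA1*, g20515, was not tested either. Next to *Pt-GATA3*, g8335 had at most 33 counts in a library. Beyond *Pt-GATAL2b*, 114 kb away, g26876 differed by -0.60 ± 0.83, -0.68 ± 0.71 and 1.31 ± 0.52.

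**Figure D4:**
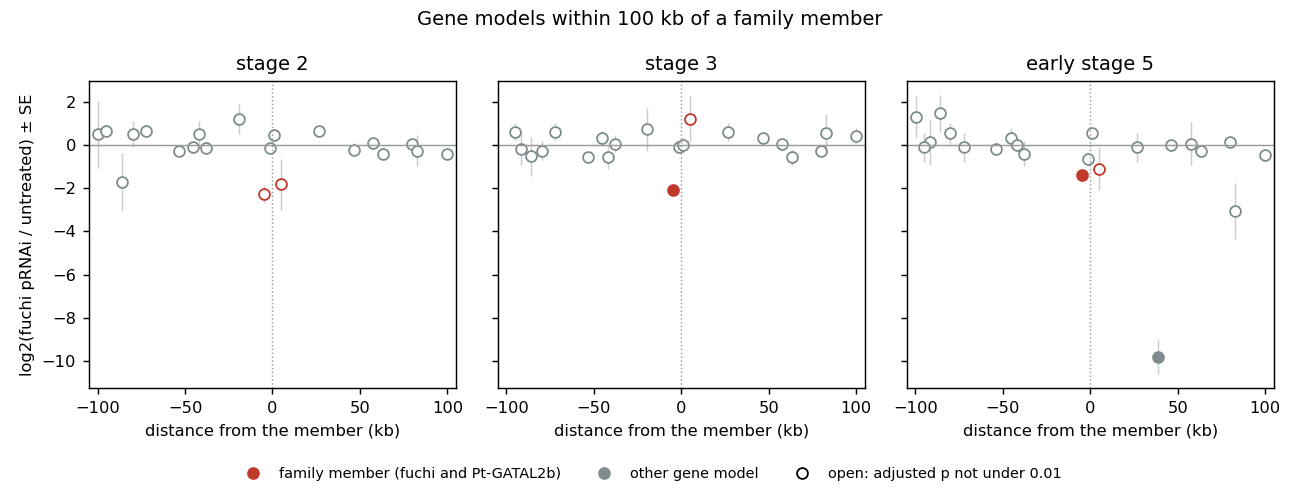
Log2 difference between *fuchi* pRNAi and untreated embryos (y axis; bars, SE) of every tested gene model within 100 kb of a member against its distance from that member in kb (negative, lower coordinates), by stage. Filled points are called; red points are *fuchi* and *Pt-GATAL2b*, which lie 4.80 kb from each other, and a gene model near several members appears at each distance. g8338 is the filled grey point at 38.7 kb at early stage 5, and most other gene models lie near 0.

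Other genes of these pathways were described from 2 lists taken from the study's text, the u-shaped homologs, which are Friend-of-GATA cofactors in *Drosophila*, and 9 patterning genes (*Pt-hh*, *Pt-Delta*, *Pt-sog*, *Pt-dpp*, *Pt-fkh*, *Pt-otd*, *Pt-msx1*, *Pt-Ets4* and *Pt-twist*). The study described *Pt-hh*, *Pt-Delta*, *Pt-sog*, *Pt-otd* and g14866, among others, from these same libraries. The directions of these genes are therefore not independent evidence. Both lists were chosen with earlier results of these data known. The u-shaped homolog g14866 had 131 and 35 counts in *fuchi* pRNAi embryos at stage 3, against 264 and 259 in untreated embryos. The groups did not overlap, and the log2 difference was -2.05 ± 0.45 (SE; edgeR adjusted p = 0.089, 1.4e-07 with the female as a block, and 0.11 with the block in the fit of all 12 libraries). At early stage 5 the groups overlapped, with 119 and 5 counts in *fuchi* pRNAi embryos, against 53 and 24 in untreated embryos. The homolog g16893 was low, with 1 and 0 counts in early stage 5 *fuchi* pRNAi embryos, against 7 and 17 in untreated embryos (adjusted p = 0.12). The quasi-likelihood test of edgeR without the block called no u-shaped homolog at any stage (of 1, 2 and 2 tested, 0, 2 and 1 had an unadjusted p under 0.05). DESeq2 called 0, 1 and 0 of them, and the likelihood ratio test 0, 1 and 1. Of the 12079, 13324 and 12358 gene models tested, 413, 1239 and 1731 had an unadjusted p under 0.05. DESeq2 called 13, 129 and 539 of all gene models, and the likelihood ratio test 4, 141 and 833.

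Of the patterning genes, 8, 9 and 9 were tested at stages 2, 3 and early 5. The quasi-likelihood test of edgeR without the block called 0 of them at each stage (unadjusted p under 0.05 in 1, 4 and 5). The likelihood ratio test of edgeR called 0, 3 and 2 of them, and 4, 141 and 833 of all gene models. DESeq2 called 0, 3 and 2 of them, 1 of the 3 at stage 3 as higher, and 13, 129 and 539 of all gene models. With the block 1, 4 and 5 were called, 1, 3 and 4 as lower and 0, 1 and 1 as higher, beside 0.770%, 2.60% and 7.98% of all gene models. With the block in the fit of all 12 libraries 0, 3 and 0 were called, beside 0.0345%, 0.807% and 3.68%. *Pt-Delta*, a Notch ligand that shares scaffold 93 with *Pt-GATA4* at a distance of 584 kb, was among the pair with the smallest p at all 3 stages. It had 541 and 212 counts in *fuchi* pRNAi embryos at stage 3, against 1245 and 1084 in untreated embryos (-1.99 ± 0.32, edgeR adjusted p = 0.021). Its early stage 5 counts were 936 and 570 in *fuchi* pRNAi embryos, against 1850 and 1928 in untreated embryos (-1.37 ± 0.24, adjusted p = 0.010, just over the threshold).

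*Pt-dpp*, a BMP ligand, came first at stage 2 with a difference of -1.17 ± 0.36 (edgeR adjusted p = 0.98, 0.00045 with the block, and 0.81 with the block in the fit of all 12 libraries). *Pt-hh*, the Hedgehog ligand, came first at stage 3 with -2.14 ± 0.32 (adjusted p = 0.013, 7.1e-09 with the block, and 0.00091 with the block in the fit of all 12 libraries). *Pt-fkh*, a forkhead factor, was second at early stage 5 with -1.29 ± 0.23 (adjusted p = 0.012, 4.8e-05 with the block, and 0.20 with the block in the fit of all 12 libraries). The block calls that were higher were of *Pt-sog* and *Pt-twist*, which are named here after their values were seen. *Pt-sog*, a BMP antagonist, had 701 and 813 counts in stage 3 *fuchi* pRNAi embryos, against 54 and 117 in untreated embryos (2.90 ± 0.47, edgeR adjusted p = 0.021, 4.0e-16 with the block, and 0.0024 with the block in the fit of all 12 libraries). *Pt-twist* stands here for g14287, described as twist-related protein 2-like. The study's text places g14287 at the embryonic pole at stage 3 and does not equate it with its mesoderm marker *Pt-twi*. This gene model had 94 and 40 counts in early stage 5 *fuchi* pRNAi embryos, against 31 and 7 in untreated embryos (1.79 ± 0.56, edgeR adjusted p = 0.14, 0.00035 with the block, and 0.016 with the block in the fit of all 12 libraries). The median log2 difference of the list was -0.55, -0.60 and -0.84 at the 3 stages, against 0.01, 0.01 and -0.01 over all gene models.

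The gene models whose pattern over the 12 libraries was most like that of a member were found by Pearson's r of log2 CPM. These r values are a description, since the 12 points share stage, female, treatment and depth, and the ranking was made over 14498 gene models. *fuchi* was most like a SWI/SNF subfamily E member 1-like gene (g8863, r = 0.97), a coiled-coil gene (g13626, 0.96) and a SUMO-conjugating enzyme (g12077, 0.96), all abundant in every library. Their own differences were small beside that of *fuchi*, for example -0.38 ± 0.27 for g8863 at stage 3. *Pt-GATA1* was most like g681, a neural cell adhesion molecule gene (r = 0.95), g6831, a DNA ligase gene (0.95), and g4468 (0.95), which had their highest counts at stage 2. *Pt-GATA4* was most like g5596, a prostaglandin dehydrogenase-like gene (r = 0.98), g6415 (0.97) and g13070 (0.97). Of these g6415 had 0 and 0 counts in early stage 5 *fuchi* pRNAi embryos, against 60 and 55 in untreated embryos. *Pt-GATA5* was most like a potassium channel gene (g9839, r = 0.95), a pancreatic lipase-related gene (g27055, 0.94) and an organic anion transporter gene (g27538, 0.93), with at most 33 counts in a library.

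For the low members the likeness rested on few counts. *Pt-GATA2* was matched with g18454, g21279 and g15997 (r = 0.96, 0.96 and 0.95). *Pt-GATAL1* was matched with g19207, g1306 and g7100 (r = 0.95, 0.94 and 0.92), *Pt-GATA3* with g27143, g24114 and g14961 (r = 0.88, 0.88 and 0.86), and *Pt-GATAL2b* with g27708, g13496 and g18269 (r = 0.74, 0.70 and 0.68). With a prior count of 0.5 in place of 2, 11 of the 24 gene models named for the 8 members stayed, the 3 of *fuchi* and the 3 of *Pt-GATA3* among them, 1 of *Pt-GATA4* and none of *Pt-GATA5*. Between members, r was 0.76 for *fuchi* and *Pt-GATA5*, 0.72 for *Pt-GATA4* and *Pt-GATA5*, 0.59 for *fuchi* and *Pt-GATA4*, and -0.61 for *fuchi* and *Pt-GATA1*.

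Outside the family, 12 gene models carry a description with the word GATA, all of them as GATA-type zinc finger proteins. Of these 10 passed the filter in the fit of all libraries (g10315, g10531, g12432, g14423, g16191, g18486, g27215, g27501, g27529 and g8467). None was called at any stage by edgeR, the lowest adjusted p being 0.28 for g14423 at early stage 5 (log2 difference 0.65). At each stage 1 of them had an unadjusted p under 0.05, and DESeq2, the likelihood ratio test and the fit with the female as a block called 0 at each.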

How the data were processed

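RNA-seq of 12 whole-embryo libraries was analysed from 2 deposited tables over 27990 gene models (AUGUSTUS, Ptep_1.0 assembly). The deposited raw counts were made by the authors with HTSeq 0.6.1p1 from strand-specific poly(A) libraries. For the aligner and the strand setting, nothing was stated in the sources used. The deposited RPKM values were made by the authors from these counts, with 1 factor per gene model and 1 per library. They served to compare levels between members and to sum them over the family. The members, lists and tests were chosen with earlier results of these data known.

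Groups came from the labels. Counts were fitted per stage on 4 libraries with edgeR 4.0.16 in R 4.3.3 (TMM, at least 1 CPM in at least 1 library, quasi-likelihood F test, Benjamini-Hochberg adjusted p under 0.01 over all gene models). The SE is the size of the log2 difference divided by the square root of F. Differences between stages came from 1 fit of 12 libraries with 6 group means, and printed CPM use the TMM factors of that fit. On the log2 CPM scale the prior count was 2. With counts of 1 to 3 in a group the ratio has an exact 95% counting interval, and with 0 counts a limit of 3 counts over the group. Intervals and floors cover counting error only.

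Libraries are paired by female, since the labels give the same mothers before and after injection. The deviations of same-female libraries from their group means correlated with 0.52, 0.43 and 0.37 at stages 2, 3 and early 5, and a fit with the female as a block was run as an alternative. Within each group the chi-square between both libraries averaged 28.0 to 44.1 over gene models of at least 20 counts, far above counting noise, so both counted as separate samples. This does not show that libraries of the same female are independent. Libraries of a female and treatment carry the same day in the labels at every stage, and the fits of all 12 libraries do not model this. Nothing replaces further mothers: without the block, p-values measure the spread between clutches of 2 females. With the block they measure the spread left once the female is taken out.

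The genes named were the 8 members, g1836 and *catA*, the 2 patterning genes of smallest p per stage and those called, both u-shaped homologs, the adjacent and the called gene models within 100 kb, the 3 most alike gene models per member and other GATA-described models past the filter. The alternatives were the likelihood ratio test, DESeq2 1.42.0, RLE factors, no filter, a filter in 2 libraries, the block, the fit of all 12 libraries, that fit with the block (added after seeing the data) and each library left out. The fit was also run on simulated counts with the same dispersion (spread beyond counting error) for all gene models and no effect of the female. Known differences were put only into the more abundant gene models. That run therefore does not cover the pairing by female or the low members. No set test was run. Protein and promoter sequences were not used here.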

Additional observations from a re-analysis of the deposited data

Results flagged for a closer look

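The effect of *fuchi* pRNAi on *Pt-GATA4* differed between stages in the fit with the female as a block. The effect at early stage 5 minus that at stage 3 was a log2 of -7.26 ± 1.25 (SE), with an edgeR adjusted p of 0.0035. At stage 3 the gene had 7 and 5 counts in *fuchi* pRNAi embryos, against 13 and 2 in untreated embryos, and at early stage 5 it had 2 and 0, against 243 and 252, so that the stage 3 effect rests on few counts. Without the block the adjusted p was 0.023. With 2 libraries per group, single libraries far from their group could not be looked for.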

How the results depend on the processing

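At stage 2, edgeR's likelihood ratio test called 1 member and 4 gene models, DESeq2 2 and 13, no filter on low counts 2 and 30, and the female as a block 2 and 93. At stage 3 the likelihood ratio test called 141 gene models, DESeq2 129 and no filter 208, and the block called 2 members and 346 gene models. At early stage 5 the likelihood ratio test called 833 gene models, no filter 898 and the block 986, and the fit of all 12 libraries called 1 member. For the difference of the effect between stages 3 and 2, these were 22 gene models with the likelihood ratio test, 33 with no filter and 9 with the block. Between early stage 5 and stage 3 they were 1 member and 159 gene models, 1 and 247, and 1 and 99 in that order of settings. Between early stage 5 and stage 2 the likelihood ratio test called 1 member and 226 gene models, no filter 2 and 279, and the block 160 gene models. For changes from stage 3 to early stage 5, no filter called 2 members in *fuchi* pRNAi and 2 in untreated embryos, and in *fuchi* pRNAi embryos the likelihood ratio test and the block called 1 each. The cause of these moves was not tested. With a prior count of 0.5, 11 of 24 alike gene models were shared. *Pt-GATA1* at early stage 5 turned sign with the likelihood ratio test (-0.011) and DESeq2 (-0.029). Chosen after seeing the data, the fit of all 12 libraries with the female as a block called 1 member and 5 gene models at stage 2 and 117 gene models at stage 3, and at early stage 5 it called *fuchi* (adjusted p = 0.0051) and *Pt-GATA5* (0.00034), which the fit of all 12 libraries without the block did not. The block changed no other call of a member than these and those given in the text. The planned order of levels by CPM per kilobase was not run, since the tables hold no exon lengths.

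Without 1 library at a time, 0 to 1 gene models were called at stage 2, 0 to 1 members at stage 3 and 2 to 3 at early stage 5. The differences of the effect called 0 to 3 gene models (stage 3 minus 2), 6 to 42 (early stage 5 minus 3) and 30 to 86 (early stage 5 minus 2). Between stages 2 and 3, 1 to 3 members and 2173 to 3501 gene models were called in *fuchi* pRNAi embryos, against 2 to 4 and 2998 to 4607 in untreated embryos. Between stage 3 and early stage 5, 0 to 1 members and 1411 to 2651 gene models were called in *fuchi* pRNAi embryos, against 1441 to 2671 gene models in untreated embryos. The sign turned for uncalled differences: at stage 3 *Pt-GATA2* (-0.73 to 1.58), *Pt-GATA1* (-1.23 to 0.46) and *Pt-GATAL1* (-0.28 to 0.80), and at early stage 5 *Pt-GATA1* (-0.73 to 1.42) and *Pt-GATA3* (-1.48 to 0.29). It also turned for the differences of the effect at stage 3 minus 2 of *Pt-GATA4* (-4.05 to 1.17), *fuchi* (-0.30 to 0.88) and *Pt-GATA5* (-2.82 to 1.86), and at early stage 5 minus 3 of *Pt-GATA1* (-0.35 to 2.09). Members with under 10 counts per library are limited by depth.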
